A study of Mus musculus with 10 samples.

Results

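Oxidative phosphorylation depends on genes in both the mitochondrial and the nuclear genome, and the transcripts of both were counted here in T cells from mouse colorectal carcinoma. The genes were chosen by symbol: those that start with mt-Nd, mt-Co, mt-Atp or mt-Cytb, and those that start with Nduf, Sdh, Uqcr, Cox4, Cox5, Cox6, Cox7, Cox8 or Atp5. The rule found 110 of 31053 genes, of which 13 were mitochondrially encoded and 97 nuclear encoded. No UMI was counted for 5 of the nuclear encoded genes, and 97 to 102 of the 110 passed the filter on low counts in any comparison below.

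The series holds 5 single-cell RNA libraries (10x Chromium 5′ chemistry, per the labels) and 5 T cell receptor libraries, paired with them by sample title and cell barcode. The untreated group had 2 RNA libraries, the group given S. chamaejasme (the plant Stellera chamaejasme) had 1, and the group given S. chamaejasme and anti-PD-1, a checkpoint-blocking antibody, had 2 and is called the combination. No library received anti-PD-1 alone, so the part of the antibody cannot be told apart from that of the plant together with it, and the labels give no strain, tumour model, age, dose or time of treatment. Nothing in the labels says whether 2 libraries of a group came from separate animals, so the p-values measure only the spread between these libraries. Of 22590 cell barcodes with 97967927 UMIs (unique molecular identifiers, each counting 1 captured transcript end), 20239 cells were kept. Cells with a Cd3 UMI were assigned from the UMIs of lineage genes to 3668 CD8 cells (Cd8a or Cd8b1, without Cd4 or Foxp3), 5772 conventional CD4 cells (Cd4, without Cd8 or Foxp3) and 1259 regulatory T cells (Treg; Foxp3, without Cd8 and with or without a Cd4 UMI), and 9540 cells met none of these rules. The sums of UMIs over a lineage's cells in 1 library are the samples compared below. The summed level of Foxp3, which set the Treg rule, and 5 further Treg genes (Il2ra, Ikzf2, Tnfrsf18, Tnfrsf4 and Ctla4) was 3866 to 5680 CPM, the depth-scaled count, in the Treg sums, 802 to 1019 CPM in conventional CD4 sums and 287 to 533 CPM in CD8 sums. Summed B and plasma cell genes reached 346 CPM in Treg and 280 CPM in conventional CD4 sums, and myeloid genes at most 49.3 CPM in any. Treg sums were above conventional CD4 sums without overlap in epithelial or tumour genes (23.3 to 81.2 against 3.35 to 9.54 CPM). The same held for cycling genes (34.2 to 120 against 21.6 to 30.6 CPM). Of the 5 epithelial or tumour genes, Krt8, Krt19 and Cdh1 had no UMI in any Treg sum, so Epcam and Krt18 made up the Treg level. The part of the epithelial or tumour genes and of the cycling genes in the Treg differences below was not tested.

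The respiratory chain passes electrons from NADH and succinate through complexes I to IV to oxygen and pumps protons across the inner mitochondrial membrane, and complex V, the ATP synthase, uses the gradient to make ATP. The mitochondrial genome encodes core subunits of complexes I, III, IV and V, while complex II and all other subunits come from nuclear genes and are imported. T cells that leave the resting state raise glycolysis and remodel their mitochondria, and regulatory and memory T cells are known for their reliance on mitochondrial respiration.

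The mitochondrial genes lie close together and some share bases, which limits how far their UMIs can be separated. The ends and starts of the pairs with the longest shared stretches on 1 strand are shown because all 4 genes enter the counts below. The first bases of mt-Nd3 are shown because it is the member that differed most often between the treatment groups. The sequences are from the GENCODE M21 transcripts (GRCm38, plus strand of chrM), at chrM:7910-7969, chrM:7927-7986, chrM:10114-10173, chrM:10167-10226 and chrM:9459-9578, with the overlap (or, for mt-Nd3, the first codon) in capitals.
mt-Atp8 end: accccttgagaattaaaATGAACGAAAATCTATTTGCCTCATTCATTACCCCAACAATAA
mt-Atp6 start: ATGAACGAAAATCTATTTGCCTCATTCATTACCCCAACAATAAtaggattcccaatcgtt
mt-Nd4l end: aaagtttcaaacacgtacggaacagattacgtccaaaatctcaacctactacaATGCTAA
mt-Nd4 start: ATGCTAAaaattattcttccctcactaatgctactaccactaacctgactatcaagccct
mt-Nd3 start: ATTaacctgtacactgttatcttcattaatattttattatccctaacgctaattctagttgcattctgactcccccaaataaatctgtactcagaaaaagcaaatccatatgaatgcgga
The pair of ATP synthase genes overlaps by 43 bases and the pair of complex I genes by 7 bases. mt-Atp6 and mt-Co3 also meet in a shared base, and mt-Nd5 and mt-Nd6 overlap at their ends on opposite strands. Nuclear pseudogenes of mitochondrial origin also carry long identical stretches: 97.7% of the 90-base windows of mt-Nd3, 99.5% of those of mt-Co2 and mt-Atp6, 99.9% of those of mt-Co3 and 98.6% of those of mt-Nd4l occur unchanged in an annotated nuclear transcript. The share was 61.1% for mt-Nd4, 33.5% for mt-Co1 and 4.21% for mt-Nd2. It was 0 for mt-Nd1, mt-Atp8, mt-Nd6 and mt-Cytb, and none of the pseudogenes concerned is among the genes of the count files. The labels do not say how reads that match both places were counted.

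For the nuclear encoded genes, RefSeq promoter windows of 300 bases (GRCm38.p6) were matched for 80 of 97. The motif of NRF1, a known activator of respiratory genes, was found in 25.9% of the 85 windows of these genes and in 4.6% of all 32851 windows. The ETS motif bound by GABPA (CCGGAAG) was found in 24.7% against 8.86%, and the YY1 motif (AAGATGGCG) in 9.41% against 1.4%, each searched on both strands without removing overlaps between motifs. These shares describe letters in the windows and not binding. Genes named below differed in this: the windows of Ndufa10, Cox7a2l, Ndufb10, Atp5d and Ndufa3 held no match of the 3 motifs. The windows of Atp5h and Sdhd each held 1 NRF1 and 1 ETS match. All 3 windows shown here hold a match. The windows of 3 genes that lineage differences below turn on are shown, each 5′ to 3′ on its own strand with matches in capitals: Sdhaf1 at chr7:30322326-30322625 (minus strand, 1 ETS match in reverse), Ndufaf4 at chr4:24897833-24898132 (plus strand, 1 NRF1 match) and Cox8a at chr19:7217567-7217866 (minus strand, 2 ETS matches in reverse).
Sdhaf1: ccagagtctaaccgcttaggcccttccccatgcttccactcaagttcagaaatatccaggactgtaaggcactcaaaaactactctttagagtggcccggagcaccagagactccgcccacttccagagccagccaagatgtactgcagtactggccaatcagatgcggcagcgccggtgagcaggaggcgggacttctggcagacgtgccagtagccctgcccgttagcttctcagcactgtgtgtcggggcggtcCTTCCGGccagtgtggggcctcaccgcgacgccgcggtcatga
Ndufaf4: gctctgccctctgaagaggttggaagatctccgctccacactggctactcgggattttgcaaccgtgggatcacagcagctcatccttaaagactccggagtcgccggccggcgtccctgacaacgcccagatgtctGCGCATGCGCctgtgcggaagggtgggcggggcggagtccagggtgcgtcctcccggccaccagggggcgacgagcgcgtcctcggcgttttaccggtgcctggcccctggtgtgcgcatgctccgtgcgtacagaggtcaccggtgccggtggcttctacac
Cox8a: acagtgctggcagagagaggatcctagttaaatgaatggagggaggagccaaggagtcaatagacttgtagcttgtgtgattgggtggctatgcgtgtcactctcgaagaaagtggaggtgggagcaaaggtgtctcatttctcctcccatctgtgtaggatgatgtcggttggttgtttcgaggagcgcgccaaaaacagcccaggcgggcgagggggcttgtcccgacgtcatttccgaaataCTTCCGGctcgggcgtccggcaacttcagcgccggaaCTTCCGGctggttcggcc

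In the kept cells the mitochondrially encoded set took 2.51% of all UMIs (2228102 UMIs) and the nuclear encoded set 1.67% (1479134 UMIs). The mitochondrial UMIs were concentrated in few genes: the top 5 genes held 76.1% of them, against 21.5% for the top 5 nuclear encoded genes. Among mitochondrial UMIs, 49.8% came from the 3 genes of complex IV (cytochrome c oxidase), 22.1% from the pair of complex V, 18.9% from the 7 of complex I and 9.23% from mt-Cytb of complex III. Among nuclear encoded UMIs, complex V held 34.2%, complex I 26.1%, complex IV 25.9%, complex III 10.2%, the assembly factors 1.96% and complex II 1.6%. Complexes were assigned by the start of the symbol alone, here and below. Ndufa4 (19039 UMIs) was thus counted with complex I and not with complex IV. The order of these complexes, at 386703 and 383223 UMIs, depends on that rule. Among the 7 mitochondrially encoded genes of complex I the UMIs per gene ran from 3887 for mt-Nd6 and 4366 for mt-Nd3 to 163508 for mt-Nd4l. Of all members mt-Co1 had the most, 502279. The overlapping pairs were uneven, with 163508 UMIs for mt-Nd4l and 45970 for mt-Nd4, and 380230 for mt-Atp8 and 110957 for mt-Atp6. How far the UMIs of a pair can be separated was not tested, and its genes are counted singly below. These are counts of transcript ends and are not divided by transcript length. The isoforms known from other tissues or conditions were nearly absent: Cox4i2 had 22 UMIs, Cox6a2 1, Cox7a1 114, Cox6b2 154, and Ndufa4l2 and Cox8b had none.

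The balance of the mitochondrially and nuclear encoded sets differed between the lineages, with Treg cells holding the fewest mitochondrial UMIs per nuclear encoded UMI. This ratio of summed UMIs is free of any scaling between libraries, and since it is a score over all members it is given without a test. In conventional CD4 cells it was 1.5 in untreated 1, 1.77 in untreated 2, 1.42 in S. chamaejasme 1, 1.49 in combination 1 and 1.49 in combination 2, a mean of 1.54 ± 0.133 (SD, n = 5). In CD8 cells the values in the same order were 1.41, 1.68, 1.18, 1.42 and 1.4 (1.42 ± 0.177, SD, n = 5). In Treg cells they were 1.18, 1.4, 1.34, 1.28 and 1.2 (1.28 ± 0.0912, SD, n = 5). The Treg ratio was below the conventional CD4 ratio of the same library in all 5 libraries, by 0.08 to 0.34 on the log2 scale, and the CD8 ratio was below it in all 5, by 0.07 to 0.27. Across libraries the 3 ranges overlapped, and the means of neighbouring lineages differed by less than the SD of the CD8 values. Treg cells were below CD8 cells in 4 libraries and above them, by 0.19 on the log2 scale, in S. chamaejasme 1. The lower Treg ratio came with a mitochondrial share of 2.14% to 2.56% of UMIs, against 2.44% to 2.95% in conventional CD4 cells, and with a nuclear encoded share of 1.77% to 1.89%, against 1.63% to 1.77%.

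**Figure D1:**
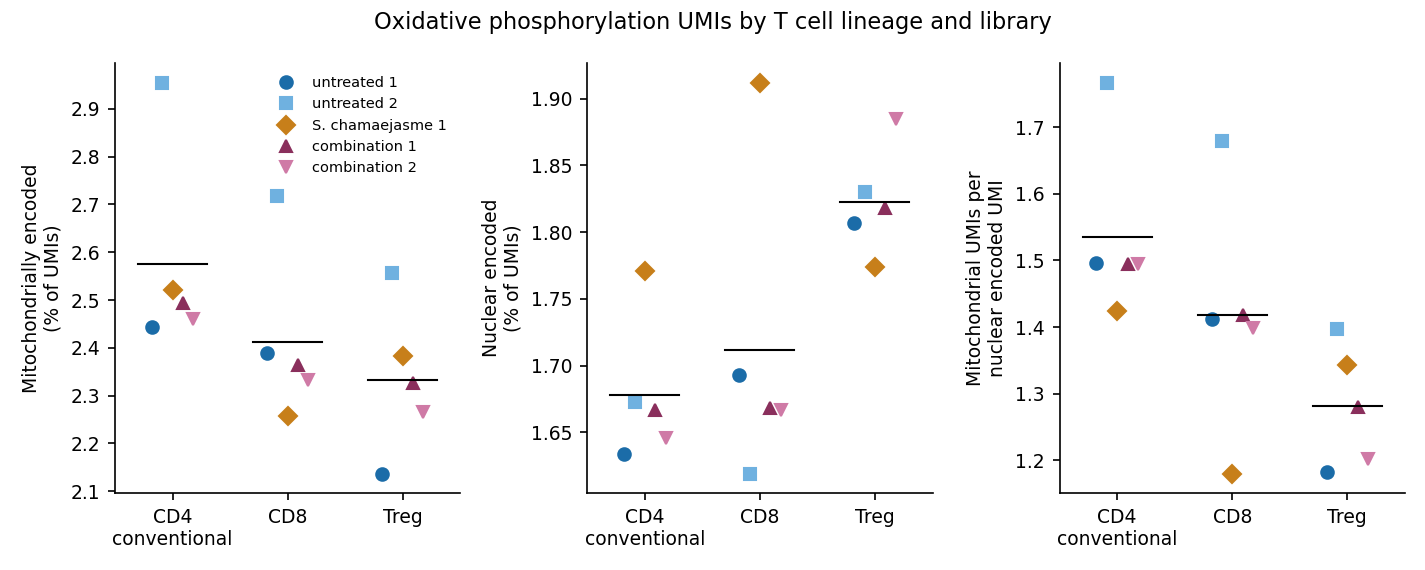
Mitochondrially encoded share of UMIs (left, %), nuclear encoded share (middle, %) and their ratio (right) in the summed cells of each lineage; each point is 1 of the 5 RNA libraries, a horizontal line is their mean, and the axes do not start at 0. The mean ratio falls from 1.54 in conventional CD4 cells to 1.42 in CD8 and 1.28 in Treg cells, and untreated 2 has the highest ratio in every lineage.

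Gene by gene, 12 of 13 mitochondrially encoded genes were lower in Treg than in conventional CD4 cells (edgeR quasi-likelihood test on summed counts with the library as a block, adjusted p under 0.05), where 15.6% of all 9319 genes tested were lower. The median log2 difference of the set was -0.34, beside -0.04 for the nuclear encoded set and -0.01 for all genes. mt-Nd2, a core subunit of complex I, had 430, 779, 517, 604 and 550 TMM-scaled CPM in the Treg sums of untreated 1, untreated 2, S. chamaejasme 1, combination 1 and combination 2. In conventional CD4 cells it had 654, 1249, 653, 789 and 749 CPM. Treg cells were lower in each of the 5 libraries, although the ranges over libraries overlapped, and the log2 difference was -0.48 ± 0.06 (SE; edgeR adjusted p = 5.88e-06).

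The other complex I genes fell by 0.45 (mt-Nd1), 0.38 (mt-Nd4), 0.35 (mt-Nd6), 0.34 (mt-Nd4l) and 0.24 (mt-Nd5) on the log2 scale. mt-Nd3 fell by 0.52 and, like mt-Nd6, was lower in 4 of the 5 libraries. mt-Cytb, the catalytic subunit of complex III, fell by 0.31, mt-Atp8 and mt-Atp6 of the ATP synthase by 0.37 and 0.31, and mt-Co2 and mt-Co3 of complex IV by 0.28 and 0.31. mt-Co1, the catalytic subunit of complex IV and the most abundant of the set, did not pass the test, with a log2 difference of -0.08 ± 0.05 (SE; edgeR adjusted p = 0.248). Its Treg level was 5050 to 5991 CPM and its conventional CD4 level 5438 to 6738 CPM.

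The scaling bears on these values, because the ribosomal protein share of UMIs was 26.2% to 28.1% in Treg cells and 33.5% to 37.0% in conventional CD4 cells. With library totals in place of TMM factors, which moved the median of all genes to 0.12, 10 mitochondrial genes were still lower and none higher. Under that scaling the nuclear encoded calls turned from 10 higher and 12 lower to 23 higher and 6 lower, so the split of all members went from 10 higher and 24 lower to 23 higher and 16 lower. Without combination 1 the count of members that passed the test was 22 in place of 34. The mt-Nd6 call was lost without untreated 1 (-0.31), combination 1 (-0.25) or combination 2 (-0.33), that of mt-Nd5 without combination 1 (-0.23) or combination 2 (-0.24), and that of mt-Nd3 without combination 2 (-0.42).

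**Figure D2:**
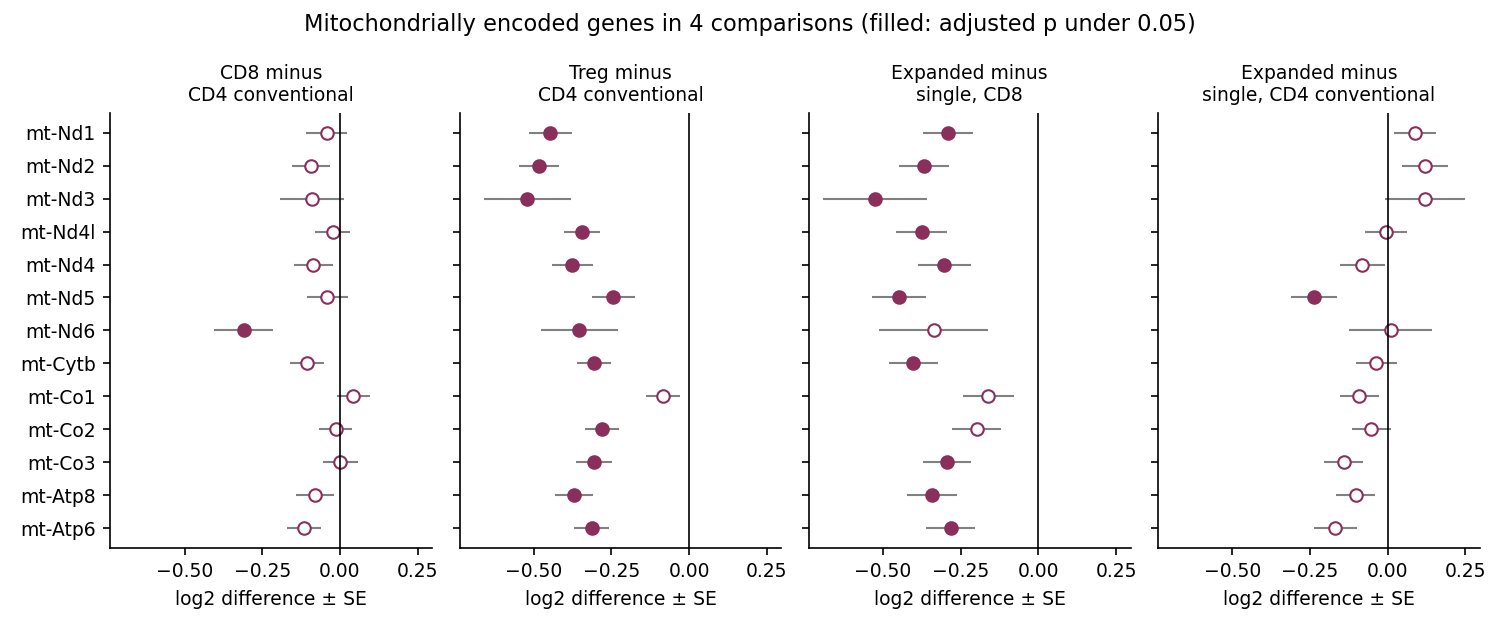
Log2 difference ± SE (x axis) of the 13 mitochondrially encoded genes in 4 comparisons, each over 5 libraries with the library as a block; filled points passed edgeR's test at an adjusted p under 0.05. In Treg cells 12 of 13 are lower and in expanded CD8 clones 10 of 13, while 1 passes in each of the other comparisons.

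Few members differed between CD8 and conventional CD4 cells, and fewer than among all genes. Of the mitochondrial genes only mt-Nd6 passed the test, by -0.31 ± 0.1 on the log2 scale (SE; edgeR adjusted p = 0.021, lower in 5 of 5 libraries), and the set's median was -0.08. mt-Nd6 had 24 to 61 CPM in CD8 cells and 34 to 78 CPM in conventional CD4 cells; it is the 1 member read from the opposite mitochondrial strand, overlaps the end of mt-Nd5, and its call was lost with DESeq2, with cells thinned to 1500 UMIs, with no block for the library, without untreated 2 (-0.30) and without combination 2 (-0.34). Of 88 nuclear encoded genes tested, 12 were higher and 1 lower in CD8 cells, beside 11.9% and 13.3% of all genes tested. Members that passed made up 13.9%, under the 25.2% of all genes that passed.

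Cox8a, an accessory subunit of complex IV, had 1022, 898, 988, 866 and 885 CPM in the CD8 sums (same order of libraries) and 785, 751, 768, 673 and 681 CPM in the conventional CD4 sums. The 2 lineages did not overlap in Cox8a, and it rose by 0.35 ± 0.05 (SE; edgeR adjusted p = 1.74e-05). Sdhd, a membrane anchor of complex II, had 76 to 85 CPM in CD8 cells and 53 to 70 CPM in conventional CD4 cells, again without overlap, and rose by 0.34. Ndufaf5, a complex I assembly factor, rose by 0.38, and Ndufa10, Ndufs7, Ndufb7 and Ndufa13 of complex I rose by 0.29, 0.25, 0.21 and 0.21. Uqcrc1, a core protein of complex III, rose by 0.22. Of the ATP synthase genes only Atp5b, the catalytic beta subunit, passed, by 0.2, and of complex IV also Cox5a (0.2), Cox5b (0.16) and Cox6a1 (0.16).

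Library totals without TMM factors gave 3 nuclear encoded genes higher and 1 lower and 5 mitochondrial genes lower, so the members' split went from 12 higher and 2 lower to 3 higher and 6 lower. Without combination 1 the test passed 8 members and without combination 2 it passed 6, in place of 14. The calls of Ndufa13, Ndufaf5, Ndufb7, Ndufs7 and Uqcrc1 were each lost without at least 1 library.

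In Treg cells the nuclear encoded genes moved in both directions, and the widest differences were in assembly factors, some at low levels, rather than in structural subunits. Sdhaf1, which helps to place iron-sulfur clusters in complex II, had 132, 206, 221, 211 and 161 CPM in Treg cells, 111, 159, 111, 102 and 88.8 CPM in conventional CD4 cells and 57.6, 93.8, 57.3, 62.2 and 51.3 CPM in CD8 cells. In every library its level was highest in Treg cells and lowest in CD8 cells. The means were 186 ± 38, 114 ± 26.7 and 64.5 ± 16.9 CPM (SD, n = 5), and the log2 difference was 0.78 ± 0.1 for Treg against conventional CD4 cells (SE; edgeR adjusted p = 2.02e-06) and -0.82 ± 0.09 for CD8 against conventional CD4 cells (adjusted p = 1.11e-06). Sdhaf1 overlaps a gene on the opposite strand (E130208F15Rik), as do Atp5d (Cbarp), Ndufa3 (Tfpt), Atp5j (Gabpa) and Ndufa13 (Tssk6), while Ndufa13 and Ndufb8 also overlap a gene on their own strand. The labels do not say whether the counting used strand, so the values of these genes are uncertain to that degree.

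Ndufaf4, a complex I assembly factor, went the other way. It had 38.3, 22.6, 27.8, 26.9 and 29.6 CPM in Treg cells and 60.3, 57.5, 44.6, 44.0 and 49.3 CPM in conventional CD4 cells. The 2 lineages did not overlap, and Ndufaf4 fell by 0.80 ± 0.11 on the log2 scale (SE; edgeR adjusted p = 7.67e-06). Sdhaf3 (-1.14) and Ndufaf6 (-0.66) also fell at low levels, with means of 2.89 and 6.25 CPM in Treg cells, and Sdhaf2, which attaches the flavin to Sdha, rose by 0.32.

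By complex, 4 genes of nuclear encoded complex I were higher and 5 lower of 37 tested in Treg against conventional CD4 cells. The lower genes were the accessory subunits Ndufa3 (-0.47), Ndufb10 (-0.41), Ndufa5 (-0.41), Ndufa10 (-0.31) and Ndufb5 (-0.24), and the higher ones Ndufa13 (0.31), Ndufb7 (0.26), Ndufb8 (0.23) and Ndufa1 (0.21). Of complex II, Sdhb, the iron-sulfur subunit, rose by 0.21. Of complex III, the small subunits Uqcr11 and Uqcrb rose by 0.44 and 0.24, and Uqcr10 fell by 0.18. None of 11 complex IV genes passed the test at an adjusted p under 0.05.

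In complex V, Atp5d, the delta subunit of the rotor stalk, had 486, 544, 515, 521 and 514 CPM in Treg cells against 406, 384, 413, 405 and 367 CPM in conventional CD4 cells, and rose by 0.39 ± 0.06 (SE; edgeR adjusted p = 1.68e-05). Atp5g1 of the membrane ring fell by 0.34, and the peripheral stalk genes Atp5f1 and Atp5h fell by 0.32 and 0.32. Thus subunits of the same enzyme differed in direction. Some nuclear encoded subunits, core and accessory, were chosen for description (Ndufs1, Ndufv1, Sdha, Sdhb, Uqcrc1, Uqcrfs1, Cox4i1, Cox5a, Cox5b, Cox6c, Atp5a1 and Atp5b). Of these only Sdhb passed in Treg against conventional CD4 cells, and the others lay between -0.32 for Ndufs1 and 0.12 for Cox6c. In all, 33.7% of the members tested passed, against 33.8% of all genes (18.2% higher and 15.6% lower), so the count of members was at the background. Ndufaf6, Ndufb7, Ndufb8, Sdhaf2, Sdhaf3 and Uqcrb lost their calls without at least 1 library. Sdhb, Ndufa1, Ndufa10, Ndufb5, Atp5h and Uqcr10 here, and Atp5b, Cox5a, Cox5b and Cox6a1 in CD8 cells, stand outside the 8 widest per direction and were added to complete the complexes after their values were seen.

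**Figure D3:**
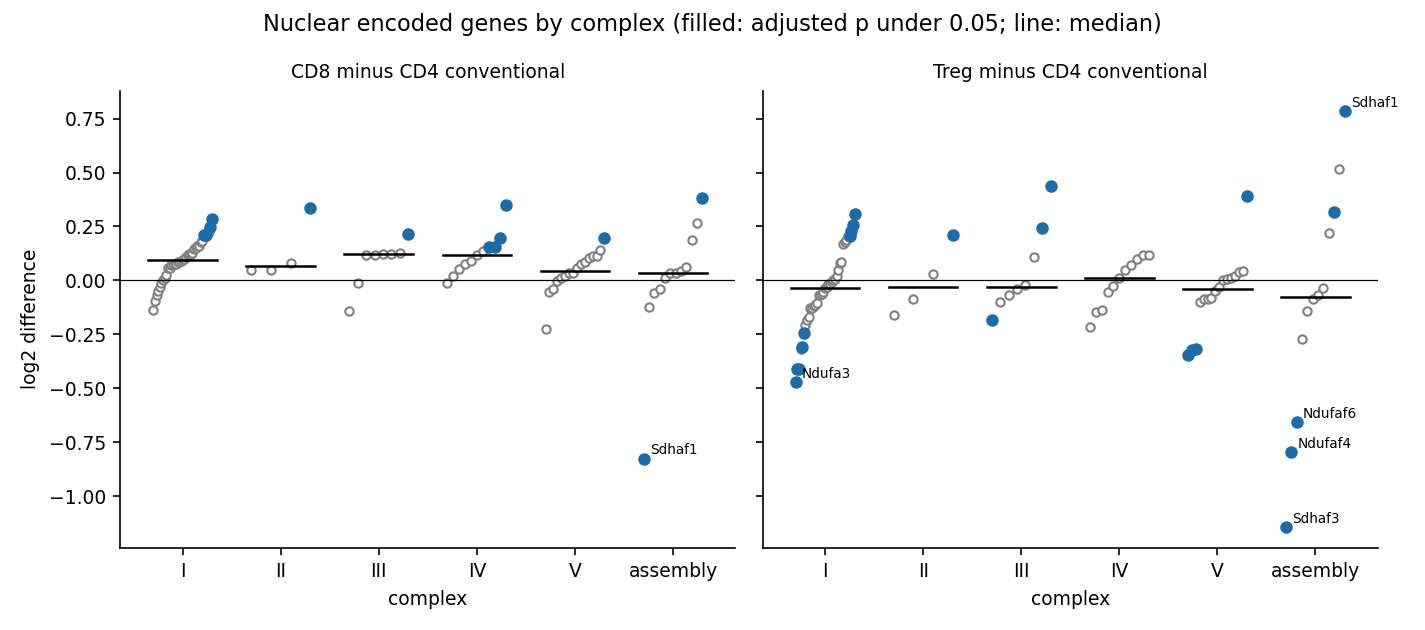
Log2 difference (y axis) of nuclear encoded genes by complex (x axis), for CD8 against conventional CD4 cells (left) and Treg against conventional CD4 cells (right); filled points passed edgeR's test at an adjusted p under 0.05 and lines are medians. Sdhaf1 lies at -0.82 on the left and 0.78 on the right, and Sdhaf3, Ndufaf4 and Ndufaf6 at -1.14, -0.80 and -0.66 on the right. Sdhaf3 and Ndufaf6 are at low levels.

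Treg against CD8 cells gave the highest count, 45 of 101 members, 44.6% beside 42.5% of all genes. Of the mitochondrial genes 11 were lower (21.5% of all genes were higher and 21% lower), with a median of -0.29, and of the nuclear encoded genes 6 were higher and 28 lower, with a median of -0.14. The widest differences were again Sdhaf1 (1.61 ± 0.1, SE; edgeR adjusted p = 1.22e-10), Sdhaf3 (-1.33), Ndufaf4 (-0.86) and Ndufaf6 (-0.69). Ndufa10 (-0.59), Ndufb10 (-0.54), Ndufaf5 (-0.47), Atp5h (-0.46) and Ndufa3 (-0.44) followed, and Atp5d (0.45), Uqcrb (0.39), Uqcr11 (0.31), Ndufb8 (0.3) and Ndufv2 (0.22) were the others that rose. Sdhaf3 and Ndufaf6 were at low levels. The calls of Ndufaf5, Ndufaf6 and Ndufv2 were each lost without at least 1 library. With library totals, which moved the median of all genes to 0.17, the split went from 6 higher and 39 lower to 21 higher and 11 lower, 4 of the 11 mitochondrial calls were kept, and mt-Atp6 changed sign to 0.0015. The mt-Nd5 call was lost without any 1 library other than S. chamaejasme 1 (-0.20 to -0.17), and the mt-Nd3 call without untreated 2 (-0.41), combination 1 (-0.42) or combination 2 (-0.30), and that of mt-Atp6 without untreated 2 (-0.17). This comparison shares its Treg sums with the one above, so the lists are not independent.

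Clone size was read from the receptor libraries. A cell was called single when no other kept cell of its library had the same clonotype and expanded when at least 2 cells shared it, so that expanded cells of 1 clone share their origin. In CD8 cells, expanded clones held fewer mitochondrial UMIs per nuclear encoded UMI than single cells in every library. The ratio was 1.26, 1.29, 1.04, 1.15 and 1.16 in the 47 to 364 expanded cells of untreated 1, untreated 2, S. chamaejasme 1, combination 1 and combination 2. It was 1.42, 1.7, 1.22, 1.42 and 1.42 in the 258 to 665 single cells. Expanded cells were lower by 0.17 to 0.40 on the log2 scale in 5 of 5 libraries, and the ranges over libraries overlapped. Cells in clones of 2 had ratios of 1.06 to 1.3, lower than single cells in 5 of 5 libraries, from 23 to 52 cells each. In S. chamaejasme 1, the library with the most expanded CD8 cells, the ratio was 1.07 in clones of 2, 1.07 in clones of 3 to 9 and 1.01 in clones of 10 or more. In untreated 2 it was 1.06, 1.42 and 1.45, so larger clones were not lower in every library.

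Of the 13 mitochondrial genes, 10 were lower in expanded than in single CD8 cells and none higher (edgeR with the library as a block, adjusted p under 0.05), where 11.1% of all 7305 genes tested were higher and 9.39% lower. The set's median log2 difference was -0.34, beside -0.02 for the nuclear encoded set and -0.01 for all genes. mt-Nd5, a core proton-pumping subunit of complex I, had 465, 600, 401, 485 and 502 CPM in single cells and 396, 398, 308, 368 and 320 CPM in expanded cells. The 2 classes did not overlap, and mt-Nd5 fell by 0.45 ± 0.09 (SE; edgeR adjusted p = 0.000843). mt-Cytb fell by 0.40, mt-Nd4l by 0.37, mt-Nd2 by 0.37, mt-Atp8 by 0.34, mt-Nd4 by 0.30, mt-Co3 by 0.29, mt-Nd1 by 0.29 and mt-Atp6 by 0.28, each lower in 5 of 5 libraries. mt-Nd3 fell by 0.52 but was lower in 4 of 5, and its call was lost without untreated 1 (-0.43) or untreated 2 (-0.37). Of the 10 mitochondrial calls 6 were kept without untreated 2, where mt-Nd1 (-0.25), mt-Atp6 (-0.25) and mt-Co3 (-0.26) were also lost. Without S. chamaejasme 1 mt-Nd4 (-0.29) and mt-Atp6 (-0.28) were lost, without combination 1 mt-Nd1 (-0.26) and mt-Nd4 (-0.26), and without combination 2 mt-Atp6 (-0.27). mt-Co1 (-0.16), mt-Co2 (-0.20) and mt-Nd6 (-0.34) did not pass.

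Among the nuclear encoded genes in CD8 clones, 5 were higher and 6 lower, and 21.4% of all members passed against 20.5% of all genes. Ndufaf4 was the lowest, with 67.1, 56.8, 50.9, 55.7 and 53.8 CPM in single cells and 38.2, 40.8, 35, 27.8 and 32.6 CPM in expanded cells, without overlap, and a log2 difference of -0.67 ± 0.15 (SE; edgeR adjusted p = 0.00258). Sdhaf1 fell by 0.66, Cox7a2l by 0.43, Ndufb10 by 0.38, Ndufb5 by 0.36 and Atp5a1, the ATP synthase alpha subunit, by 0.29. Ndufb8 rose by 0.40, Atp5j of the peripheral stalk by 0.39, Ndufb9 by 0.31, Ndufa13 by 0.30 and Cox6c by 0.27. With library totals, which moved the median of all genes to 0.15, 4 mitochondrial genes were lower and none higher, and the members' split went from 5 higher and 16 lower to 14 higher and 7 lower. Without S. chamaejasme 1 the test passed 13 members in place of 21. Of the 11 nuclear encoded calls, those of Ndufaf4, Cox7a2l and Atp5j held without any 1 library and the other 8 were lost without at least 1.

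Expanded and single CD8 cells also differed in state. The summed level of 5 activation genes (Cd44, Cd69, Nr4a1, Ifng and Gzmb) was 2505 to 3912 CPM in expanded and 1027 to 1564 CPM in single cells. The share of cycling cells was 8.24% to 23.4% in expanded and 4.04% to 8.53% in single cells, and the ribosomal protein share of UMIs was 27.5% to 29.96% against 36.8% to 40.9%. Within cluster 7 (led by Ccl5, Ccl4 and Gzma), 1 of the clusters described below, no member passed the test between expanded and single CD8 cells, at 42 or more cells a sum. The ratio there was 1.01 to 1.27 in expanded and 1.1 to 1.36 in single cells. It was still lower in expanded cells of every library, with log2 differences of -0.13 to -0.0006. The mitochondrial share was also lower in every library (-0.13 to -0.014), while the nuclear encoded share differed by -0.028 to 0.035. Leaving out cycling cells kept 18 of the 21 calls, 9 of them mitochondrial.

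**Figure D4:**
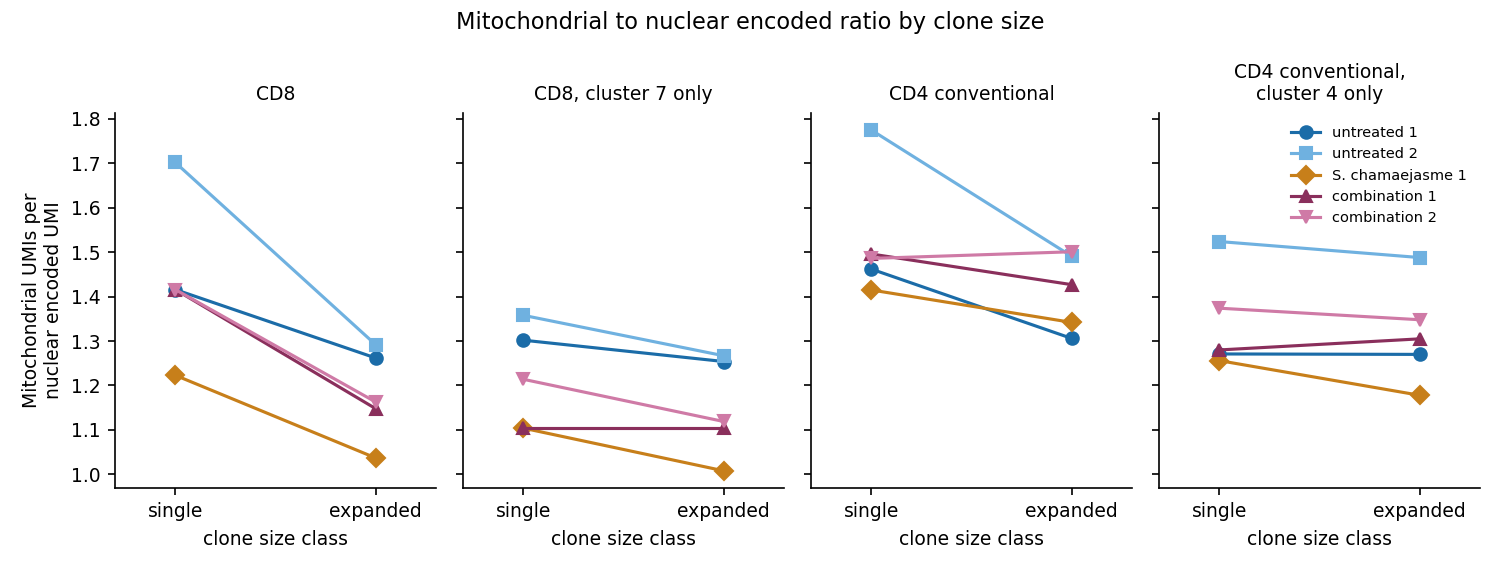
Mitochondrial UMIs per nuclear encoded UMI (y axis) in single and expanded cells (x axis), for all CD8 cells, CD8 cells of cluster 7, all conventional CD4 cells and conventional CD4 cells of cluster 4; each line joins the values of 1 library, and the y axis does not start at 0. All 5 lines fall for CD8 cells, from 1.22 to 1.7 down to 1.04 to 1.29, and the lines within cluster 7 are flatter.

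In conventional CD4 cells the ratio in expanded clones was 1.31, 1.49, 1.34, 1.43 and 1.5 and in single cells 1.46, 1.77, 1.42, 1.5 and 1.49, lower in 4 of 5 libraries and higher by 0.01 on the log2 scale in combination 2. There the mitochondrial share of UMIs was higher in expanded cells in 4 of 5 libraries: it was 2.36% to 3.12% in expanded and 2.4% to 2.9% in single cells, while the nuclear encoded share was 1.81% to 2.09% against 1.63% to 1.75%. Only mt-Nd5 of the mitochondrial genes passed the test, by -0.24 ± 0.07 (SE; edgeR adjusted p = 0.024), and its call was lost without untreated 1 (-0.21), without S. chamaejasme 1 (-0.23), without combination 1 (-0.25) and without combination 2 (-0.24). In all 11.3% of members passed against 22.4% of all genes (12.3% higher and 10.1% lower).

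Cox7a2l, which joins complexes III and IV into supercomplexes, had the widest difference, with 237, 362, 266, 462 and 428 CPM in single and 175, 235, 168, 240 and 231 CPM in expanded conventional CD4 cells. It was lower in expanded cells of all 5 libraries, by 0.74 ± 0.09 on the log2 scale (SE; edgeR adjusted p = 2.54e-06). Ndufaf4 (-0.53), Ndufb10 (-0.41) and Ndufb4 (-0.33) also fell. Ndufa12 rose by 0.40, Ndufa13 by 0.30, Cox5a by 0.26, Ndufa1 by 0.26, Cox6c by 0.23 and Cox6b1 by 0.23.

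The 5 activation genes summed to 1791 to 2701 CPM in expanded and 1115 to 1340 CPM in single conventional CD4 cells, and the ribosomal protein share was 25.8% to 28.7% against 35.6% to 38.1%. With library totals, which moved the median of all genes to 0.18, 36 nuclear encoded and 3 mitochondrial genes were higher and 1 nuclear encoded gene lower, so the members' split went from 6 higher and 5 lower to 39 higher and 1 lower. Within cluster 4, led by Il17a and Il22, no member passed. The test passed 6 members without untreated 2, 5 without S. chamaejasme 1, 4 without combination 1 and 5 without combination 2, in place of 11. Of the 10 nuclear encoded calls those of Cox7a2l and Ndufb10 held without any 1 library.

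The difference between the lineages in the effect of clone size was tested directly, an analysis added after the data were seen. Only mt-Nd2 of 99 members passed, beside 1.79% of all 8115 genes (0.813% higher and 0.974% lower): it fell with expansion in CD8 cells (-0.37 ± 0.08, SE) and had a log2 difference of 0.12 ± 0.07 in conventional CD4 cells. The difference of the 2 effects was -0.48 ± 0.1 (SE; edgeR adjusted p = 0.0152), and the call was lost without untreated 2 (-0.47), without combination 1 (-0.46) and without combination 2 (-0.41), each of which left no member called.

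Clusters of cells, made without the members' genes, spread more widely than the lineages. Cluster 1, led by Tox2, Tbc1d4 and Il21, had a mitochondrial share of 2.8% to 3.65% and a nuclear encoded share of 1.85% to 2.07% over the 5 libraries. Cluster 12, led by the cell-cycle genes Pclaf and Birc5, had the highest nuclear encoded share of the 14 clusters with library values, 2.24% to 2.53% over 3 libraries, with a mitochondrial share of 2.03% to 2.11%, so that it alone held fewer mitochondrial than nuclear encoded UMIs (ratio 0.809 to 0.94). Among CD8 clusters, cluster 5, led by Cd8b1 and Ly6c2, had ratios of 1.41 to 1.82 and cluster 7 of 1.07 to 1.35. Cluster 5 held 61.5% to 62.2% of CD8 cells in the combination libraries, 33.9% and 49.4% in the untreated and 23.2% in S. chamaejasme 1. Cluster 11, led by Gm42418 and Malat1, had a median of 988 UMIs per cell, a mitochondrial share of 5.39% to 6.25% and a nuclear encoded share of 0.797% to 1.02%, and stayed without a name.

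Between the treatment groups, mt-Nd3, a small complex I subunit, was the member that differed most often. In CD8 cells it had 71.7 and 103 CPM in the untreated libraries, 24.2 in S. chamaejasme 1 and 40.8 and 36.0 CPM in the combination libraries. In conventional CD4 cells the values were 95.5 and 107 CPM, 33.0 CPM, and 38.7 and 36.9 CPM. In Treg cells they were 53.1 and 84.1 CPM, 39.5 CPM, and 33.1 and 22.3 CPM. The untreated libraries lay above the other 3 in each lineage, with no overlap.

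Against untreated, mt-Nd3 fell in the combination by 1.19 ± 0.17 on the log2 scale in CD8 cells (SE; edgeR adjusted p = 0.00572), by 1.43 ± 0.11 in conventional CD4 cells (adjusted p = 0.00137) and by 1.38 ± 0.28 in Treg cells (adjusted p = 0.0425). In S. chamaejasme 1 it fell by 1.86 ± 0.24 in CD8 cells (adjusted p = 0.00565) and by 1.62 ± 0.15 in conventional CD4 cells (adjusted p = 0.00631), both resting on 1 library. In Treg cells the S. chamaejasme difference was -0.87 ± 0.36 (adjusted p = 0.374). All these comparisons share the untreated libraries and are not independent. The combination effect on mt-Nd3 differed by 0.23 ± 0.17 between CD8 and conventional CD4 cells (adjusted p = 0.994) and by 0.11 ± 0.26 between Treg and conventional CD4 cells (adjusted p = 0.965). The Treg call was lost without untreated 2 (-0.94), without S. chamaejasme 1 (-1.39), without combination 1 (-1.67) and without combination 2 (-1.10).

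Other transcripts separated the untreated libraries in the same way. Lars2, the mitochondrial leucyl-tRNA synthetase gene, had 1015 to 2066 CPM in the untreated and 423 to 748 CPM in the other sums, and passed the test as lower in all 6 group comparisons. Gm42418, a gene that overlaps ribosomal RNA, had 12190 to 22870 CPM in the untreated and 5216 to 9332 CPM in the other sums, and AY036118 had 2179 to 3899 against 661 to 1207 CPM. Their part in the mt-Nd3 difference was not tested. With mitochondrial and these rRNA-like genes left out of the library sizes, each mt-Nd3 call was kept.

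**Figure D5:**
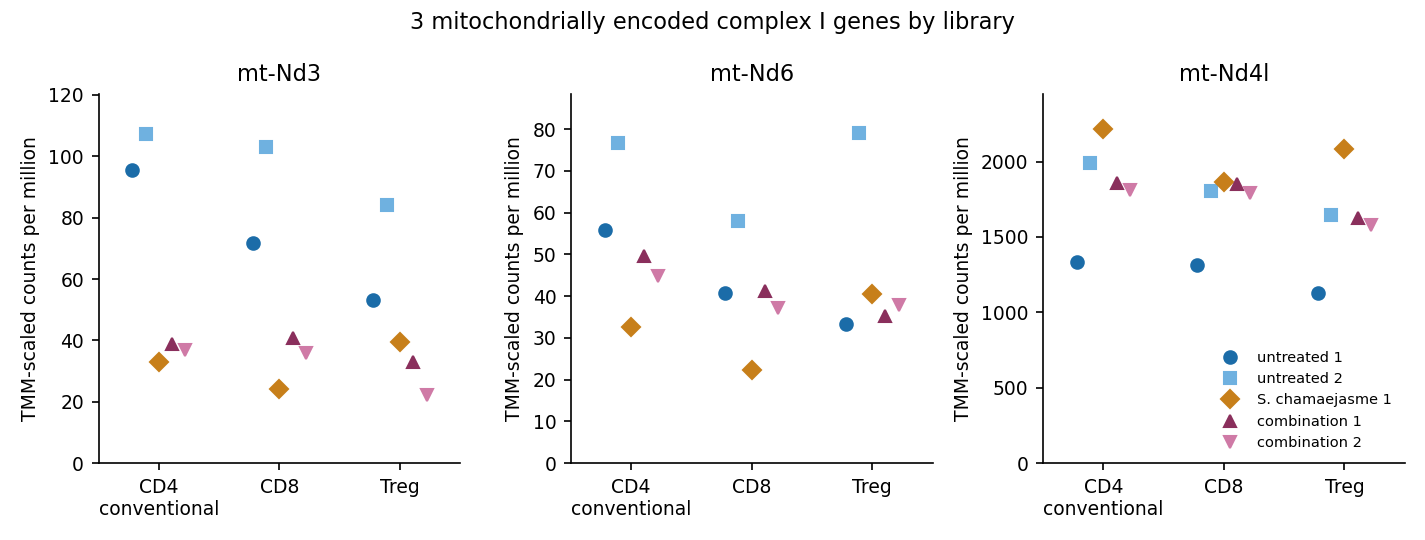
TMM-scaled CPM (y axis, from 0) of mt-Nd3, mt-Nd6 and mt-Nd4l in the summed cells of each lineage (x axis), 1 point per library. For mt-Nd3 the untreated points, 53.1 to 107 CPM, lie above all others in their lineage; for mt-Nd4l untreated 1 is the lowest in every lineage.

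No other mitochondrial gene passed the test for the combination in any lineage, although some separated the untreated libraries too. mt-Atp6 had 1256 and 1677 CPM in the untreated CD8 sums, 998 CPM in S. chamaejasme 1 and 951 and 1134 CPM in the combination sums, with a log2 difference of -0.49 ± 0.16 for the combination (SE; edgeR adjusted p = 0.112). Its untreated sums were also above the other 3 in conventional CD4 cells (-0.54 ± 0.13, adjusted p = 0.0569) and in Treg cells (-0.36 ± 0.15, adjusted p = 0.333). The same held for mt-Co1 and mt-Co2 in CD8 and conventional CD4 cells, for mt-Atp8 in CD8 cells and for mt-Nd6 in conventional CD4 cells. For the combination the log2 difference was positive for 3 of the 13 genes in each lineage. mt-Nd4l, the next protein-coding gene on the genome, had 1314 and 1806 CPM in the untreated, 1863 in S. chamaejasme 1 and 1850 and 1791 CPM in the combination sums of CD8 cells, with overlap between groups and a log2 difference of 0.22 ± 0.16 for the combination (SE; edgeR adjusted p = 0.443). In CD8 cells of S. chamaejasme 1, mt-Nd6 (-1.16 ± 0.23, SE; edgeR adjusted p = 0.0312) and mt-Co3 (-1.11 ± 0.23, adjusted p = 0.0362) also fell. mt-Co3 had 1497 CPM there against 2564 and 3896 CPM in the untreated and 2914 and 2859 CPM in the combination libraries, so that the untreated and combination values overlapped. Both calls rest on 1 treated library. The mt-Co3 call was lost without combination 2, and the mt-Nd6 call with thinned cells, with lineages taken from clusters and within 1 cluster, while DESeq2 gave mt-Nd6 no adjusted p.

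In all, 1 of 101 members passed for the combination in CD8 cells, as lower (4.54% of all genes passed, 1.23% as higher and 3.31% as lower). For S. chamaejasme in CD8 cells 3 passed, all lower (2.62%, 1.11% and 1.51%). In conventional CD4 cells 5 of 102 passed for the combination, 3 higher and 2 lower (4.73%, 1.4% and 3.33%), and 1 for S. chamaejasme, lower (1.15%, 0.435% and 0.715%). In Treg cells 1 of 98 passed for the combination, lower (0.517%, 0.164% and 0.353%). With both directions together these shares of members were near or under the background except for the Treg combination call, which was 1 gene. By direction, the lower calls for S. chamaejasme in CD8 and in conventional CD4 cells were also above the background. So were the higher calls for the combination in conventional CD4 cells, and each of these rested on at most 3 genes. For S. chamaejasme in Treg cells no member passed with edgeR (0.328% of all genes passed, 0.189% higher and 0.139% lower) or with DESeq2. There 10 members had an unadjusted p under 0.05. The share of all genes at that level is not given, so this count is not read as a difference. Apart from the mitochondrial genes the calls were those of the combination in conventional CD4 cells. Sdhaf4, a complex II assembly factor, had 8.59 and 6.33 CPM in the untreated and 15.1 and 17.0 CPM in the combination libraries and rose by 1.15 ± 0.23 (SE; edgeR adjusted p = 0.0281). Sdhc, a membrane anchor of complex II, rose by 0.71, from 21.5 and 27.8 to 42.6 and 39.7 CPM, and Ndufc2 by 0.49, from 54.4 and 63.5 to 83.1 and 84.6 CPM. Atp5k fell by 0.54, from 164 and 196 to 124 and 124 CPM. S. chamaejasme 1 lay on the side of the combination libraries for these 4 genes, with 14.8, 44.0, 90.9 and 110 CPM. The Sdhaf4 call was lost without untreated 2, that of Sdhc without combination 1, and those of Ndufc2 and Atp5k without either combination library; each kept its direction. DESeq2 kept the Atp5k call alone, thinning to 1500 UMIs that of Sdhc alone, and within 1 cluster none of the 4 passed. The conventional CD4 cells of the groups also lay in different clusters: cluster 8 held 22.4% and 28.8% of them in the untreated and under 1% in the other libraries (0.444% to 0.963%), and cluster 0 held 3.98% and 1.86% in the untreated, 11.4% in S. chamaejasme 1 and 25.8% in each combination library.

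The untreated libraries differed from each other more than the combination libraries did in the mitochondrial share of every lineage, while in the nuclear encoded share of Treg cells the order was the other way (1.81% and 1.83% untreated, 1.82% and 1.89% combination). The mitochondrial share of CD8 UMIs was 2.39% and 2.72% in the untreated, 2.26% in S. chamaejasme 1 and 2.37% and 2.33% in the combination libraries, and the nuclear encoded share 1.69% and 1.62%, 1.91%, and 1.67% and 1.67%. In conventional CD4 cells the mitochondrial share was 2.44% and 2.95%, 2.52%, and 2.49% and 2.46%. In Treg cells it was 2.14% and 2.56%, 2.38%, and 2.33% and 2.27%. In the mitochondrial share the combination libraries lay between the untreated ones in conventional CD4 and Treg cells and just below both in CD8 cells, by less than the gap between the untreated libraries. Without either untreated library more members passed in each lineage, for the combination and for S. chamaejasme. Those fits rest on 1 untreated library, and the shares of all genes that passed in them are not given. The rise is therefore not read as a result about the members. For the combination in CD8 cells the median of the mitochondrial set was -0.31 without untreated 1 and 0.06 without untreated 2. Of the differences between lineages in the combination effect, none of 102 members passed with edgeR or DESeq2, for CD8 (0.0377% of all genes passed, 0.00943% higher and 0.0283% lower) or for Treg against conventional CD4 cells (0.198%, 0.16% and 0.0377%). At an unadjusted p under 0.05 there were 0 and 9 members, without the share of all genes at that level, so these counts are not read as differences.

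Other genes of the pathway were counted from lists chosen for this description. Of 78 mitochondrial ribosomal protein genes (Mrpl and Mrps), which translate the 13 mitochondrial messages, 6 were higher and 19 lower in Treg than in conventional CD4 cells (18.2% and 15.6% of all genes), with a median log2 difference of -0.14. In expanded CD8 clones 2 of 76 were higher and 12 lower (median -0.13; 11.1% and 9.39% of all genes), and in expanded conventional CD4 clones 1 of 77 was higher and 6 lower (median -0.13), both under the shares of all genes (12.3% and 10.1%). Of 23 genes of mitochondrial genome expression tested, 6 were lower in Treg than in conventional CD4 cells and none higher: Fastkd1, Ppargc1b, Gabpa, Lars2, Lrpprc and Myc. In expanded CD8 clones 4 of 17 were lower, Lrpprc, Myc, Tfam (the packaging and transcription factor of mitochondrial DNA) and Lars2. Gm42418 and AY036118, given with Lars2 above, were also lower in Treg than in conventional CD4 cells in every library. Gm42418 had 5216 to 15340 against 7067 to 21520 CPM. In expanded against single CD8 cells it was higher in untreated 2 (23440 against 21840 CPM) and lower in the other libraries. The part of these genes in the Lars2 differences was not tested. Of 39 assembly factors and carriers outside the rule, 3 were higher and 6 lower in Treg than in conventional CD4 cells, and Atpif1, the inhibitor of the ATP synthase, was among the higher ones. Of 17 citric acid cycle genes, 1 was lower, Idh2. The citric acid cycle list had 2 of 17 genes higher for the combination in conventional CD4 cells, Suclg2 and Idh2, and none lower. Of all genes 1.4% were higher and 3.33% lower there.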

How the data were processed

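Per the submitters' processing notes, Cell Ranger 3.1.0 and STAR were used with the mm10 genome; no release of the annotation is named. The matrices the authors deposited are unnormalized UMI counts; receptor contigs come with clonotypes. Barcodes under 300 genes or over 10% mitochondrial UMIs were left out (the latter took 888 cells, 1.99% to 4.81% per library, and bears on the mitochondrial shares), as were 1310 likely doublets (2 or more productive TRB chains, or the highest Scrublet scores); libraries shared at most 39 barcodes. Depth was 8763821 to 27759543 UMIs per library before filtering. Counts were summed per library and lineage, or per library and clone class with at least 30 cells, and tested with edgeR 4.0.16 (glmQLFit and glmQLFTest, TMM, filterByExpr, two-sided, Benjamini-Hochberg adjustment over all genes, threshold 0.05). Group fits used 5 sums and 2 residual degrees of freedom. Lineage and clone fits had the library as a block, since the sums compared come from the same tumour and library. On simulated counts the CD8 group fit recovered 68.8% of genes changed 2-fold and 93.7% of those changed 4-fold. CPM of members use the TMM-scaled library size. CPM of the marker and activation genes, Lars2, Gm42418 and AY036118 use plain totals, as do the shares. Clusters (scanpy 1.11.5, Leiden) left out the members. Named genes were the mitochondrial members and the up to 8 nuclear encoded members per direction with the largest change past the threshold. The 12 subunits chosen for description, Cox7a2l and 6 restricted isoforms were also named. Members and lists were chosen with earlier results of these data known. The alternatives were DESeq2 1.42.0, no count filter, other library sizes, thinning to 1500 UMIs, other cell and clone definitions and leaving out each library; library totals without TMM factors, fits within 1 cluster, the test of the clone effect between lineages and, for groups, fits without cycling cells were added after the data were seen.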

Additional observations from a re-analysis of the deposited data

Results flagged for a closer look

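Within the 5 libraries of a lineage, which mix the 3 groups, single libraries stood apart, a pattern that chance gives in about 1 of 20 sets of values. Untreated 2 had the highest mitochondrial share of UMIs, far from the other 4 libraries, in CD8 cells (2.72%) and in conventional CD4 cells (2.95%), and its ratio of mitochondrial to nuclear encoded UMIs stood apart in conventional CD4 cells (1.77). S. chamaejasme 1, the single library of its group, had a nuclear encoded share far above the other 4 in CD8 cells (1.91%) and in conventional CD4 cells (1.77%). The effect of clone size on mt-Nd2 differed between CD8 and conventional CD4 cells by -0.48 on the log2 scale (edgeR adjusted p = 0.0152), lower with expansion in 5 of 5 libraries for CD8 cells.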

How the results depend on the processing

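Of 1564 alternative values for 107 gene and comparison pairs named, 1190 kept direction and call, 368 kept direction but missed the threshold and 6 changed sign, and 26 pairs kept both throughout; the causes were not tested. Counts of members called follow, where they moved by more than 1.5 times. No count filter gave 4 (combination) and 9 (S. chamaejasme) in CD8 cells in place of 1 and 3, 13 and 14 in conventional CD4 cells in place of 5 and 1, and 0 for the combination in Treg cells in place of 1. DESeq2 gave 1 for S. chamaejasme in CD8 cells (with no adjusted p for mt-Nd3 and mt-Nd6), 4 in conventional CD4 cells, 0 for the combination in Treg cells (no adjusted p for mt-Nd3), 12 in CD8 clones in place of 21, 4 in conventional CD4 clones in place of 11 and 4 for the clone effect difference in place of 1. Cells thinned to 1500 UMIs gave 2 and 5 in CD8, 3 and 4 in conventional CD4 and 0 (combination) in Treg cells, 8 for CD8 against conventional CD4 cells in place of 14, and 11 and 5 in CD8 and conventional CD4 clones. Without cycling cells there were 4 for S. chamaejasme in conventional CD4 and 0 for the combination in Treg cells, and without the limit on mitochondrial UMIs 4 for S. chamaejasme in conventional CD4 cells. Lineages taken from clusters gave 29 for CD8 against conventional CD4 cells and 1 for S. chamaejasme in Treg cells. Library totals without TMM factors gave 2 for the combination in CD8 cells, 4 for S. chamaejasme in conventional CD4 cells, 9 for CD8 against conventional CD4 cells and 40 in conventional CD4 clones. Within 1 cluster, with fewer cells, there were 2 for the combination in CD8 and 2 in conventional CD4 cells, and 0 in clones of either lineage. CD8 clones of at least 5 cells gave 6 from 3 libraries; this was not run for conventional CD4 cells, where too few libraries held enough cells.

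With no replicate block, the pairing of sums within a library was ignored, and members called were 4 for CD8 against conventional CD4 cells, 14 for Treg against conventional CD4 cells in place of 34, 22 for Treg against CD8 cells in place of 45, 7 in CD8 clones and 4 in conventional CD4 clones. No paired analysis was possible for the treatment groups because their replicate numbers are names given in order.

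Leaving out each library gave 1 to 18 (combination) and 2 to 22 (S. chamaejasme) in CD8 cells, 2 to 25 and 5 to 22 in conventional CD4 cells, and 0 to 10 and 0 to 6 in Treg cells. It gave 6 to 11 for CD8 and 22 to 34 for Treg against conventional CD4 cells, 34 to 44 for Treg against CD8 cells, 13 to 17 in CD8 clones, 4 to 9 in conventional CD4 clones and 0 to 3 for the clone effect difference. A lone untreated or combination library is then assumed to vary like the others.

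The values that changed sign were mt-Atp6 in Treg against CD8 cells with library totals (0.0015), and, within 1 cluster, Sdhaf1 (0.17) and Cox7a2l (0.054) in CD8 clones and Ndufa13 (-0.059), Ndufa1 (-0.019) and Cox6c (-0.0072) in conventional CD4 clones. Depth limits the Treg sums most: untreated 1 holds 76 Treg cells.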
